A study of Mus musculus with 6 samples.

Results

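Claudins are the membrane proteins that set what passes between epithelial cells, and 10 of them that are known from the tight junctions of the nephron were followed here in whole mouse kidney: Cldn1, Cldn2, Cldn3, Cldn4, Cldn7, Cldn8, Cldn10, Cldn14, Cldn16 and Cldn19. They were taken by gene symbol from the count tables. All 10 were among the 24422 listed genes, and 9 of them passed the filter on low counts that left 15171 genes for testing. The exception was Cldn14. The kidneys were collected at postnatal day 60 from C57BL/6 mice on an iron-sufficient diet (220 ppm iron). There were 3 control libraries, with the genotype given as wild type, and 3 TfR1KO;KspCre libraries, with the genotype Tfr1f/f;KspCre. In the second group, called knockout below, the promoter of Ksp-cadherin drives Cre in the distal nephron, where it removes floxed exons of the transferrin receptor TfR1 (gene Tfrc), so other cells of the kidney keep the gene. The design calls the 3 kidneys of each group biological replicates, and the labels do not say whether control mice carried the floxed allele.

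Claudins of neighbouring cells bind each other across the intercellular space, and the mix of members decides whether the junction acts as a barrier or as a pore for selected ions and water. Claudin-2 forms a cation and water pore in the leaky proximal tubule, and claudin-10 occurs as an anion pore of the proximal tubule and a sodium pore of the thick ascending limb. Claudin-16 and claudin-19 act together in calcium and magnesium reabsorption in the thick ascending limb, where claudin-14 inhibits them. Claudin-3, claudin-4, claudin-7 and claudin-8 line the tight distal segments and the collecting duct, and claudin-1 marks the parietal epithelium of Bowman's capsule. Counts of Cldn10 join the transcripts of both forms.

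In the knockout kidneys Cldn4, Cldn7 and Cldn1 rose 4.12-fold, 3.09-fold and 2.40-fold and passed the test. Cldn2 and Cldn10 were at 0.389 and 0.327 of the control level in the fit and did not pass. Cldn8 was at 1.01 times the control level, and Cldn16 and Cldn19 had no consistent direction across the knockouts. Of the 9 tested members, 3 were called higher and 0 lower (edgeR's quasi-likelihood test, adjusted p under 0.05 over all genes tested), where 10.6% of all tested genes were called higher and 6.64% lower (17.2% in either direction). Over all tested genes 1604 were higher and 1008 lower, and 2985 and 662 with library size alone in place of TMM. Before adjustment 4 members were higher and 2 lower at a p under 0.05, as were 21.0% and 17.6% of all tested genes (38.6% together). DESeq2's Wald test called 4 higher and 2 lower, against 17.1% and 15.0% of all genes by that tool (32.2% together), and limma-voom called 3 higher and 0 lower, against 7.33% and 6.05% (13.4% together). The 3 knockouts lay above all 3 controls for 4 members and below them for 2, where the same held for 23.8% and 22.2% of all tested genes. In whole tissue, fewer cells of a type and less RNA per cell cannot be told apart.

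The libraries limit these calls. Total counts were between 11501053 and 21001341, and knockout 3 was the smallest, so that 3 counts, taken as the detection floor, stood for 0.147 to 0.230 CPM (counts scaled to library size by TMM). Rn45s, a ribosomal RNA transcript, was at 22859 CPM in knockout 3 and at 4858 to 7176 CPM in the others, and its part in the values of knockout 3 was not tested. Knockout 1 lay between the controls and the other 2 knockouts on the first principal component. Control 2 held 52 counts of Xist and 3980 of 4 Y-linked genes, against at least 10458 and at most 5 in the others. By these transcripts control 2 was male and every other library female, so the sexes were not balanced between the groups. The part of sex in the values was not tested. Tfrc, of which only exons in part of the gene are floxed, did not pass the test (-0.11 on the log2 scale with an SE of 0.62, edgeR, adjusted p 0.911). It was at 138, 168 and 62.0 CPM in controls and at 214, 86.0 and 40.6 CPM in knockouts 1 to 3. Knockout 1 thus held more Tfrc than any control, and Tfrc gave no check of the labels. Without any 1 of the 3 controls, 0 genes passed over the whole table, with 4270 to 4823 genes (27.4% to 31.0%) still under an unadjusted p of 0.05. In each of those fits 0 members were called and 5 had an unadjusted p under 0.05 (edgeR), and the adjusted p of Cldn4 was 0.0805, 0.118 and 0.0927 without controls 1, 2 and 3. Without knockout 2, 1 member (Cldn4) was called, and without knockout 3, 0 members were, with 7 and 6 under an unadjusted p of 0.05. Over all genes 67 were called higher and 6 lower without knockout 2 (0.474% together), and 2 higher and 0 lower without knockout 3 (0.0130%). An unadjusted p under 0.05 was found for 29.9% and 28.9% of all genes in these fits.

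**Figure D1:**
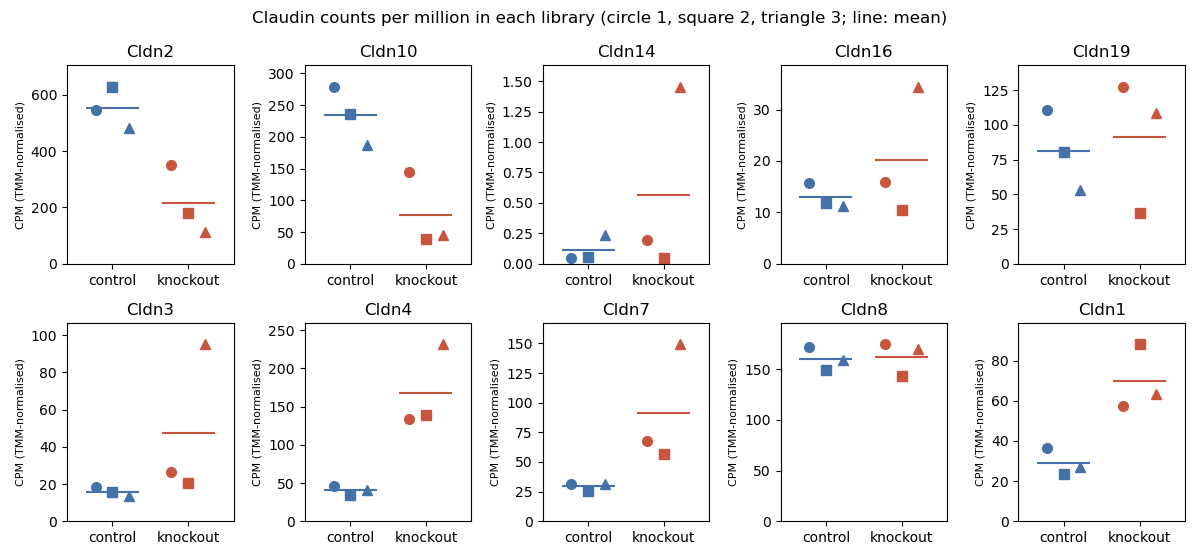
TMM-normalised CPM of each claudin (vertical axes, each from 0) in the 3 control and 3 knockout libraries, with circle, square and triangle for replicates 1, 2 and 3 and a line at the group mean. Cldn4, Cldn7, Cldn3 and Cldn1 were higher in all 3 knockouts than in any control, Cldn2 and Cldn10 were lower, and knockout 3 was highest for Cldn3, Cldn4, Cldn7, Cldn14 and Cldn16.

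The pore-forming claudins were examined first. Cldn2 (ENSMUSG00000047230; chromosome X, 136335367 to 136345925, plus strand, mm9) was at 547, 629 and 480 CPM in controls 1 to 3 and at 352, 180 and 112 CPM in knockouts 1 to 3. The groups did not overlap, and knockout 1 was the nearest to the controls. The means were 552 ± 74.4 and 215 ± 124 CPM (SD, n = 3 each), and the log2 fold change of -1.36 (SE 0.41, 95% interval -2.34 to -0.39) did not pass after adjustment (edgeR, adjusted p 0.0608). Without knockout 1 it was -1.93 and was called (edgeR, adjusted p 0.00439), as it was by DESeq2's Wald test with all libraries.

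Cldn10 (ENSMUSG00000022132; chromosome 14, 119187093 to 119274711, plus strand, mm9) was at 279, 236 and 187 CPM in controls and at 144, 38.9 and 46.1 CPM in knockouts 1 to 3. Again each knockout was below each control, and knockouts 2 and 3 lay far below knockout 1. The means were 234 ± 46.2 and 76.4 ± 58.7 CPM (SD, n = 3 each). Its log2 fold change was -1.61 (SE 0.51, 95% interval -2.82 to -0.41; edgeR, adjusted p 0.0671). Without knockout 1 it was -2.47 and was called (edgeR, adjusted p 0.00232), and DESeq2's Wald test called it with all libraries. In the fit without knockout 1, 16.4% of all tested genes were called lower and 18.0% higher (34.4% together).

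The promoters of these genes are shown beside that of Cldn4, because Cldn2 and Cldn10 were the members furthest below controls and Cldn4 the member furthest above. Each is the 250 bases before a transcript start in RefSeq (GRCm38.p6), 5′ to 3′ on the strand of the gene, and Cldn10 has 2 listed starts that the gene count joins. Capitals mark matches on either strand to TGANTCA (AP-1), CACCTG (an E-box bound by Snail factors), TATAAA (a core promoter box) or AACCNGTT (grainyhead-like factors), and no 2 matches in these windows overlapped.
Cldn2, chrX:139800558-139800807, plus strand: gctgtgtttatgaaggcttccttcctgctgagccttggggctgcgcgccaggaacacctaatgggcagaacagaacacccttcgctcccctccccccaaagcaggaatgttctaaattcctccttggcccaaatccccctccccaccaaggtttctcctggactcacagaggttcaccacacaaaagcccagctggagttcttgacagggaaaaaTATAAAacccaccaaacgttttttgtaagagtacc
Cldn10, upstream start, chr14:118787621-118787870, plus strand: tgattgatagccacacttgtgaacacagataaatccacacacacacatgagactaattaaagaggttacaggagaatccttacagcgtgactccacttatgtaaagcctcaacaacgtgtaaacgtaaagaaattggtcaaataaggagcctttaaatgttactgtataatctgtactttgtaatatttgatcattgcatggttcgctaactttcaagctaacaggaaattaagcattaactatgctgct
Cldn10, downstream start, chr14:118854700-118854949, plus strand: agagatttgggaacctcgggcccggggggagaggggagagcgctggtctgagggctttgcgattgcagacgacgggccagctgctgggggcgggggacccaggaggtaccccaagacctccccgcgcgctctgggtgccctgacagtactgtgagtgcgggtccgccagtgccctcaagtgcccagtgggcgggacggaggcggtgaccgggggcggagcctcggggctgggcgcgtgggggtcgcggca
Cldn4, chr5:134946935-134947184, minus strand: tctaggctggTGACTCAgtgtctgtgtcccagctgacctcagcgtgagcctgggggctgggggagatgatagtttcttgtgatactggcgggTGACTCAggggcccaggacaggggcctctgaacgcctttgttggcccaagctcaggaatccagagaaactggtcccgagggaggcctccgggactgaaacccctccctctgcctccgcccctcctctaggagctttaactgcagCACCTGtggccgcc
Cldn2 had a TATA box that began at position -35 from the start, and the pair of Cldn10 starts held none of the 4 motifs. The downstream Cldn10 window held 22 CpG sites and 72.4% G and C, and the upstream window 4 CpG sites and 36.0% G and C. The Cldn4 window held AP-1 letters at positions -240 and -158 and E-box letters at -14, counted back from the start. Of 32851 windows of the same length, 6.75% held the AP-1 letters, 17.2% the E-box, 12.4% the TATA box and 1.79% the grainyhead letters. RefSeq windows were matched for 9 of the 10 members (14 starts), the exception being Cldn8. AP-1 letters were found in 1 member, the E-box in 3 (Cldn4, Cldn7 and Cldn14), the TATA box in 1 and the grainyhead letters in 0. A match describes letters in the window and not a bound site.

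The claudins of the tight distal epithelia were then compared. Cldn4 (ENSMUSG00000047501; chromosome 5, 135420996 to 135422804, minus strand, mm9) was at 46.7, 34.9 and 40.9 CPM in controls and at 134, 139 and 232 CPM in knockouts 1 to 3. The lowest knockout was well above the highest control. Its means were 40.8 ± 5.93 and 168 ± 55.0 CPM (SD, n = 3 each). The rise of 2.04 on the log2 scale (SE 0.26, 95% interval 1.44 to 2.65) passed the test (edgeR, adjusted p 0.0271). Its log2 fold change stayed between 1.74 and 2.17 when any 1 library was left out. Without knockout 2 it was still called (edgeR, adjusted p 0.0486), and without knockout 3 it was not (edgeR, adjusted p 0.0564).

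Cldn7 (ENSMUSG00000018569; chromosome 11, 69778281 to 69781387, plus strand, mm9) was at 31.7, 25.2 and 31.6 CPM in controls and at 67.8, 56.9 and 149 CPM in knockouts 1 to 3. All knockouts were above all controls, and knockout 3 was far above the others. The means were 29.5 ± 3.74 and 91.3 ± 50.6 CPM (SD, n = 3 each), and the rise of 1.63 on the log2 scale (SE 0.37) passed the test (edgeR, adjusted p 0.0361). Without knockout 3 it was 1.08 and was not called (edgeR, adjusted p 0.0564), and without knockout 2 it was 1.87 and was not called either (edgeR, adjusted p 0.0627).

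Cldn3 (ENSMUSG00000070473; chromosome 5, 135462084 to 135463342, plus strand, mm9) lies near Cldn4 on the chromosome and was at 18.4, 15.9 and 13.7 CPM in controls and 26.6, 20.4 and 95.2 CPM in knockouts. The groups did not overlap, but knockouts 1 and 2 were close to the controls. Its log2 fold change was 1.56 with an SE of 0.57, which did not pass (edgeR, adjusted p 0.0940), and it was 0.55 without knockout 3. DESeq2's Wald test called it with all libraries (adjusted p 0.0253). Of its exon bases 3.2% overlap a gene on the opposite strand, and the strand setting of the counting was not given in the sources used here.

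Cldn8 (ENSMUSG00000050520; chromosome 16, 88561073 to 88563428, minus strand, mm9), a partner of claudin-4 in the chloride path of the collecting duct, was at 172, 149 and 159 CPM in controls and 175, 143 and 169 CPM in knockouts. The groups overlapped fully. On the log2 scale the difference was 0.02 with an SE of 0.15 (edgeR, adjusted p 0.930), with a 95% interval of -0.33 to 0.37, or 0.795 to 1.29 on the fold scale. The interval does not reach the fold of Cldn4 or of Cldn7. Its sign turned in the fits without control 2, knockout 1 or knockout 3, and with library size alone in place of TMM it was 0.29, where the median of all genes moved from 0.02 to 0.29.

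Ratios within a library do not depend on the normalization, and those given here were chosen after the counts had been seen. The log2 ratio of Cldn4 to Cldn8 counts was -1.88, -2.10 and -1.96 in controls and -0.38, -0.04 and 0.45 in knockouts 1 to 3. The log2 ratio of Cldn7 to Cldn8 was between -2.56 and -2.33 in controls and between -1.37 and -0.18 in knockouts. Each knockout thus held more Cldn4 and Cldn7 per Cldn8 than each control. Against Epcam, an adhesion protein of most tubule cells, the log2 ratio of Cldn4 was -2.54 to -1.86 in controls and -0.92 to -0.11 in knockouts.

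Cldn1 (ENSMUSG00000022512; chromosome 16, 26356728 to 26371927, minus strand, mm9) was at 36.6, 23.6 and 26.8 CPM in controls and 57.5, 88.2 and 63.1 CPM in knockouts 1 to 3. Here knockout 2, and not knockout 3, was the highest, and the groups did not overlap. Its means were 29.0 ± 6.77 and 69.6 ± 16.3 CPM (SD, n = 3 each), and the rise of 1.26 on the log2 scale (SE 0.23) passed the test (edgeR, adjusted p 0.0302). Across fits that left out 1 library its log2 fold change was between 1.05 and 1.44, and it was called without knockout 1 and in none of the other 5. Cldn1 lies near Cldn16 on chromosome 16, on the opposite strand.

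The thick ascending limb members did not follow Cldn10. Cldn19 (ENSMUSG00000066058; chromosome 4, 118928019 to 118935043, plus strand, mm9) was at 111, 80.8 and 53.1 CPM in controls and 128, 36.9 and 108 CPM in knockouts 1 to 3. Knockout 1 held the most and knockout 2 the least of all 6 libraries. Its difference of 0.16 on the log2 scale (SE 0.47) did not pass (edgeR, adjusted p 0.826), had a 95% interval of -0.95 to 1.27 and turned to -0.18 without knockout 1 and -0.08 without control 3. An opposite-strand gene overlaps 2.1% of its exon bases.

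Cldn16 (ENSMUSG00000038148; chromosome 16, 26463221 to 26482851, plus strand, mm9) was at 15.7, 11.8 and 11.2 CPM in controls and 16.0, 10.4 and 34.5 CPM in knockouts 1 to 3. Only knockout 3 stood outside the control range by much. The log2 fold change was 0.65 (SE 0.43, 95% interval -0.38 to 1.67; edgeR, adjusted p 0.304), and 0.03 without knockout 3. Cldn14 (ENSMUSG00000047109; chromosome 16, 93919276 to 94009082, minus strand, mm9) held 1, 1 and 4 counts in controls and 4, 1 and 19 counts in knockouts, so most libraries were at or near the floor of 3 counts. It was not tested, and no fold is given.

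**Figure D2:**
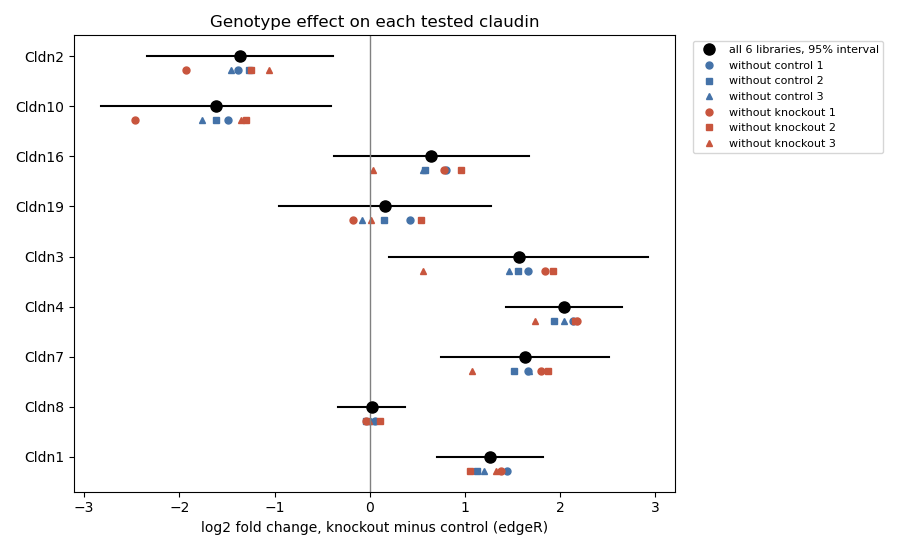
Log2 fold change of knockout over control (horizontal axis, edgeR) for the 9 tested claudins, as a black point with its 95% interval for all 6 libraries and coloured points for fits without 1 library. Cldn4, Cldn7 and Cldn1 lay above 0 in every fit shown, Cldn2 and Cldn10 below 0 in every fit shown, and Cldn8 and Cldn19 on either side.

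Markers of the nephron segments were set beside these claudins. The 14 proximal tubule markers, led by Lrp2 (megalin) and Cubn (cubilin), had a median log2 fold change of -2.10. Of them 11 were called lower and 0 higher, where 6.64% of all tested genes were lower. By DESeq2 and before adjustment 12 were lower and 0 higher, where 15.0% and 17.6% of all tested genes were lower. The summed level of these markers was 13657 to 18647 CPM in controls and 2451 to 7348 CPM in knockouts. Cldn2 was lower in the same 3 libraries. Relative to the control mean of log2 CPM it was at -0.64, -1.61 and -2.29 in knockouts 1 to 3, where the marker median was at -1.23, -2.33 and -2.72. The log2 ratio of Cldn2 to Lrp2 counts was -2.29 ± 0.18 in controls and -1.17 ± 0.17 in knockouts (SD, n = 3 each), so each knockout held more Cldn2 per Lrp2 than each control. The part of proximal tubule content in the Cldn2 difference was not tested.

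The 14 thick ascending limb markers, led by Umod (uromodulin) and Slc12a1 (the sodium-potassium-chloride cotransporter), had a median log2 fold change of -1.03. None was called by edgeR or limma-voom, whereas 2 were lower before adjustment, 2 by DESeq2 and 11 by edgeR without knockout 1, beside 17.6%, 15.0% and 16.4% of all tested genes. Their summed level was 6713 to 13235 CPM in controls, and 8197, 1350 and 2166 CPM in knockouts 1 to 3. In knockout 3 Cldn16 and Cldn19 were at 1.43 and 0.47 above the control mean of log2 CPM, where the marker median was at -1.47 and Cldn10 at -2.32. In knockout 2 Cldn19 was at -1.08, Cldn16 at -0.29, the marker median at -1.96 and Cldn10 at -2.56. The log2 ratio of Cldn16 to Umod counts was -8.19, -8.82 and -7.48 in controls and -7.75, -5.34 and -2.91 in knockouts 1 to 3, so knockout 1 lay within the control range and knockouts 2 and 3 above it. The log2 ratio of Cldn10 to Umod was -4.04, -4.50 and -3.42 in controls and -4.58, -3.44 and -2.49 in knockouts 1 to 3, so knockout 1 lay below the control range, knockout 2 within it and knockout 3 above it. For Cldn19 to Umod the log2 ratio was -5.38, -6.04 and -5.235 in controls. In knockouts 1 to 3 it was -4.75, -3.52 and -1.25, so every knockout lay above every control. The log2 ratio of Cldn10 to Cldn19 was 1.34 to 1.82 in controls and 0.17, 0.08 and -1.23 in knockouts 1 to 3.

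Markers of collecting duct principal cells had a median log2 fold change of -0.35, with 1 of 12 called higher and 1 lower. By the same test 10.6% of all tested genes were higher and 6.64% lower. Before adjustment 2 markers were higher and 3 lower, beside 21.0% and 17.6%. By DESeq2 2 were higher and 2 lower, beside 17.1% and 15.0%. The summed level of these markers was 1503 to 1804 CPM in controls and 1979, 1152 and 672 CPM in knockouts 1 to 3. Knockout 3, in which Cldn3, Cldn4 and Cldn7 were highest, held 56.1 CPM of Aqp2 (the vasopressin-regulated water channel) and 39.8 CPM of Aqp3, against 405 to 741 and 137 to 199.5 CPM in controls. In knockouts 1 and 2 Aqp2 was at 873 and 516 CPM, above and within the control range, and Aqp3 was at 253 and 123 CPM, above and below it. The 13 intercalated cell markers had a median of -0.36, with 0 called higher and 1 lower, beside 10.6% and 6.64% of all tested genes. Before adjustment 1 was higher and 3 were lower, beside 21.0% and 17.6%. By DESeq2 0 were higher and 3 lower, beside 17.1% and 15.0%. The summed level of these markers was 1402 to 1915 CPM in controls and 1434, 637 and 1687 CPM in knockouts 1 to 3. Only knockout 2 lay outside the control range. The first 2 genes of the list stood apart from that sum. In knockout 3 Atp6v1b1 and Atp6v1g3, subunits of the proton pump of intercalated cells, were at 257 and 182 CPM, above the control ranges of 130 to 167 and 54.1 to 87.9 CPM. The distal convoluted tubule list had a median of -0.93, with 1 of 11 called lower and 0 higher (6 lower before adjustment, 7 by DESeq2 and 6 by edgeR without knockout 1), and in 7 all knockouts were below all controls. Of all tested genes 17.6% were lower before adjustment, 15.0% by DESeq2 and 16.4% without knockout 1, and 22.2% were separated in that direction. Its leading genes Slc12a3 (the sodium-chloride cotransporter) and Pvalb (parvalbumin) were at 61.7 and 2.37 CPM in knockout 3, against at least 1115 and 30.9 CPM in controls.

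Other epithelia that carry claudins were checked too. The urothelium list, led by the uroplakins Upk1a and Upk1b, summed to 54.9 to 113 CPM in controls and to 126, 966 and 56.5 CPM in knockouts 1 to 3. Of its 10 genes 9 were tested, with a median log2 fold change of 2.04. Of these 1 was called higher, beside 10.6% of all tested genes. Krt13 was at 0 counts in 5 libraries. Upk1b was at 12.9, 224 and 4.67 CPM in knockouts 1 to 3, so the library with the most urothelial transcripts was knockout 2. The part of urothelium in the values of Cldn1, Cldn3, Cldn4 and Cldn7 was not tested.

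The parietal epithelium list, led by the transcription factors Pax8 and Pax2, had a median log2 fold change of 0.83. Of its 8 genes 2 were called higher (Cd44 and Ncam1, named after their values were seen), beside 10.6% of all tested genes. The list summed to 395 to 520 CPM in controls and 645 to 829 CPM in knockouts. Pax8 also stands in the pan-epithelial list. Injured tubule markers, led by Havcr1 (the kidney injury molecule KIM-1) and Lcn2 (lipocalin-2), had a median of 3.62, with 6 of 9 higher. Their median in knockouts 1 to 3 was 2.21, 3.32 and 3.50 above the control mean of log2 CPM. Krt20 stands both in this list and in the urothelium list. Of 8 pan-epithelial markers, 4 keratins were called higher (Krt7, Krt8, Krt18 and Krt19, also named after their values were seen), and the leading genes Epcam and Cdh1 (E-cadherin) had log2 fold changes of 0.16 and 0.15 (edgeR, adjusted p 0.685 and 0.647). Beside 10.6% of all tested genes called higher, of 12 immune markers 9 were, with a median of 2.72, of 10 podocyte markers 3 were, with a median of 0.49, and of 6 thin limb markers 1 was, with a median of 0.25. The part of these lists in the rise of Cldn1, Cldn4 and Cldn7 was not tested.

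**Figure D3:**
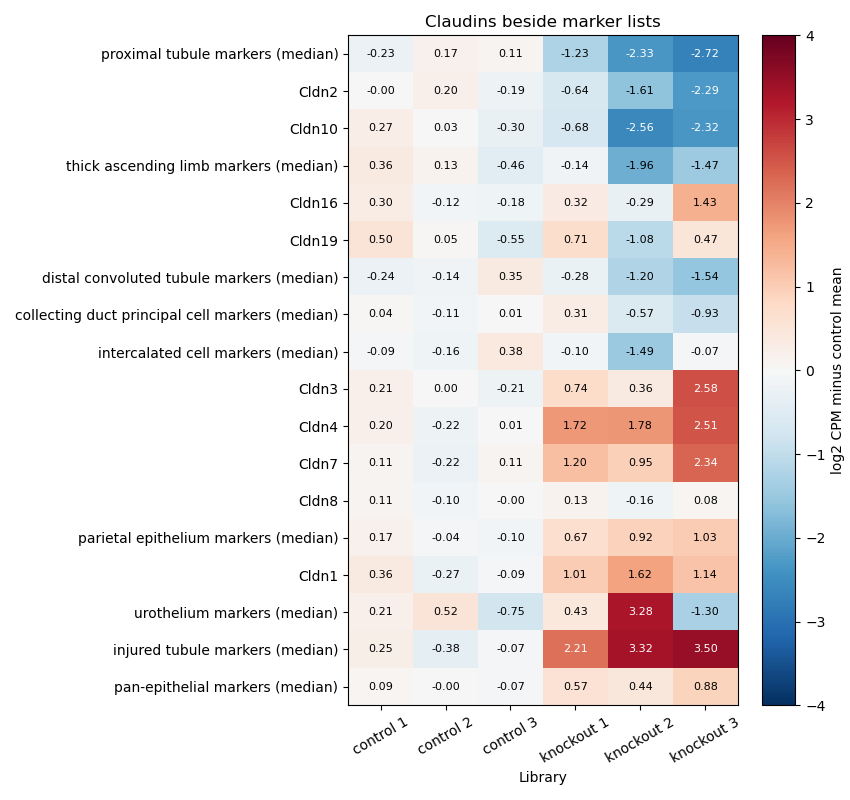
Log2 CPM minus the control mean in each of the 6 libraries (columns), for 9 claudins and for the median of each marker list (rows), with blue below and red above 0. Cldn2 and Cldn10 were below 0 in all 3 knockouts, as were the proximal tubule and thick ascending limb medians, while Cldn3, Cldn4 and Cldn7 reached 2.58, 2.51 and 2.34 in knockout 3.

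Levels of different claudins were compared as CPM per kilobase of merged exons. In controls the order was Cldn2 (166 ± 22.4), Cldn10 (89.1 ± 17.6), Cldn8 (67.9 ± 4.88), Cldn4 (22.6 ± 3.28), Cldn19 (19.1 ± 6.75), Cldn7 (15.2 ± 1.92), Cldn3 (12.7 ± 1.86), Cldn16 (10.998 ± 2.10), Cldn1 (8.94 ± 2.08) and Cldn14 (0.0591 ± 0.0546 CPM per kilobase; SD, n = 3 each). Cldn2 was above Cldn10, Cldn8 above Cldn4, and Cldn1 above Cldn14, with no overlap between libraries. All other neighbours in this order overlapped in their ranges. Within every control library, though, Cldn10 was above Cldn8, Cldn7 above Cldn3, Cldn3 above Cldn16 and Cldn16 above Cldn1. Cldn4 was above Cldn19, and Cldn19 above Cldn7, in 2 of 3 controls.

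In knockouts the order by merged exons began with Cldn4 (93.0 ± 30.4 CPM per kilobase), Cldn8 (68.9 ± 7.21), Cldn2 (64.5 ± 37.2), Cldn7 (46.9 ± 26.0) and Cldn3 (37.6 ± 33.0; SD, n = 3 each). Apart from Cldn14 as the lowest, every pair of neighbours overlapped in range, and Cldn4 was above Cldn8 in 2 of 3 libraries. The order depended on the length used. Per kilobase of coding length, a choice made after the data had been seen, Cldn2 was above Cldn4 in knockouts, with means of 311 and 267 CPM, and in controls Cldn19 was above Cldn4, with 121 and 64.8 CPM. By merged exons the summed level of the 10 genes was 413 ± 44.8 CPM per kilobase in controls and 400 ± 93.5 in knockouts (SD, n = 3 each). That difference was smaller than the spread within either group. The sum also depends on the length used, and the groups were compared by merged exons alone.

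The mix within that sum differed. Cldn2 and Cldn10 together made up 60.0%, 65.9% and 59.3% of the summed level in controls and 37.7%, 23.2% and 10.7% in knockouts 1 to 3. Cldn3, Cldn4 and Cldn7 together made up 12.6%, 10.6% and 13.7% in controls and 30.5%, 41.2% and 58.6% in knockouts. The groups did not overlap for either share. Cldn8 held 14.9% to 18.6% in controls and 15.0% to 20.5% in knockouts. Shares of a sum are tied to each other, so these are a description and no test was made.

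**Figure D4:**
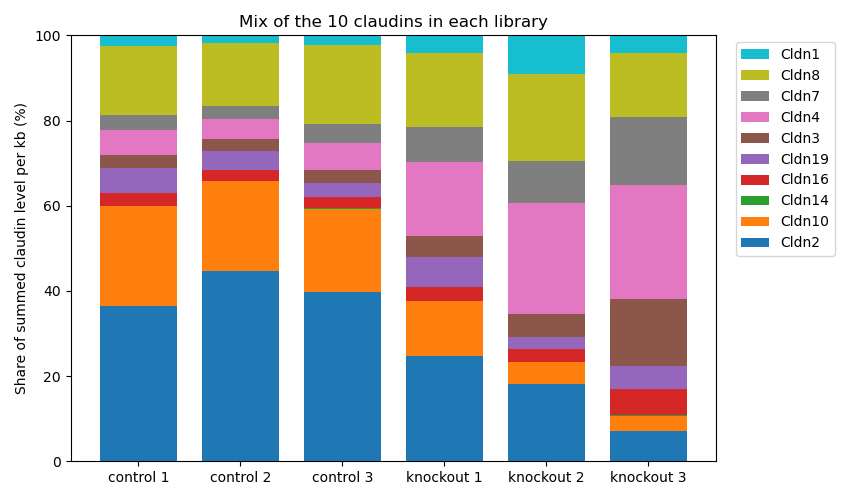
Share of each of the 10 claudins in the summed claudin level per kilobase (vertical axis, percent) in each library, stacked to 100. The pair Cldn2 and Cldn10 at the base took 59.3% to 65.9% in controls and 10.7% to 37.7% in knockouts, and the Cldn8 band kept a similar height.

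The profiles of members across the 6 libraries were compared by the root mean square difference of log2 CPM, each centred on its own mean. Within the family, Cldn4 and Cldn7 differed by 0.32, Cldn3 and Cldn7 by 0.334, and Cldn2 and Cldn10 by 0.379, whereas Cldn4 and Cldn10 differed by 2.07. Outside the family, the nearest profiles were those of Ctxn1 and Asic2 for Cldn4 (0.111 and 0.116), Gja4 and Kcnh3 for Cldn7 (0.0872 and 0.10), and Enc1 and Skap1 for Cldn1 (0.0446 and 0.0849). They were Pcca and Susd3 for Cldn2 (0.0732 and 0.0829) and Kcnn2 and Hist1h1c for Cldn10 (0.15 and 0.151). They were Fxr2 and Zmiz1 for Cldn8 (0.0366 and 0.0378), Klf2 and Lrrc10b for Cldn3 (0.175 and 0.191), Zscan2 and Rassf10 for Cldn16 (0.125 and 0.127), and Tmem51os1 and Kcnf1 for Cldn19 (0.205 and 0.255). With 6 libraries in 2 groups, such nearness is a description only.

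The rest of the family was measured by a list of 16 genes, of which 15 were in the tables and 8 were tested. Of these, 1 was called higher and 2 lower, beside 10.6% and 6.64% of all tested genes. Cldn5, a claudin known from endothelium among other cells, had a control mean of 19.4 ± 4.09 CPM and a knockout mean of 46.6 ± 14.4 CPM (SD, n = 3 per group). It rose by 1.26 on the log2 scale (SE 0.26; edgeR, adjusted p 0.0325). The 10 endothelial markers had a median of 0.10, with 0 called (edgeR; 2 higher before adjustment, 1 by DESeq2). The leading endothelial genes Pecam1 and Cdh5 had log2 fold changes of 0.78 and 0.66. Cldn11, known from myelin and testis, fell by 2.45 on the log2 scale (SE 0.33; edgeR, adjusted p 0.0271), with 162, 84 and 84 counts in controls and 21, 22 and 15 in knockouts. Cldn12 fell by 0.78 (SE 0.20; edgeR, adjusted p 0.0450), and with library size alone it was at -0.52 and did not pass (edgeR, adjusted p 0.0681). Cldn15 and Cldn23 had log2 fold changes of 0.32 and 2.26 and did not pass (edgeR, adjusted p 0.361 and 0.0578). Cldn23 was called higher by DESeq2's Wald test (adjusted p 0.00683) and with library size alone (edgeR, adjusted p 0.0381). Cldn15 was called by neither.

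Partners of claudins at the junction went in both directions. Of 29 listed genes, all tested, 3 were called higher and 1 lower, beside 10.6% and 6.64% of all tested genes. In 8 of them all knockouts were above all controls and in 4 below, beside 23.8% and 22.2% of all tested genes. The median log2 fold change of the list was 0.04, beside 0.02 for all tested genes. Those that rose included Jam2, a junctional adhesion molecule (1.07, SE 0.26; edgeR, adjusted p 0.0396), and the junction-linked transcription factor Ybx3 (0.68, SE 0.18; adjusted p 0.0475). Ybx3 did not pass with DESeq2 size factors, without the filter or by limma-voom (adjusted p 0.0505, 0.0526 and 0.0536), and Jam2 did not by limma-voom (adjusted p 0.0511). Prkcz, an atypical protein kinase C of the polarity complex, fell by 1.16 (SE 0.24; edgeR, adjusted p 0.0324). Ocln (occludin), Tjp1 (ZO-1) and Cgn (cingulin) were not called, with log2 fold changes of -0.09, 0.56 and 0.21. Cgnl1 (paracingulin) was at 807 CPM on average in controls and 420.5 in knockouts, with a log2 fold change of -0.94. It did not pass by edgeR (adjusted p 0.0603) and was called lower by DESeq2's Wald test (adjusted p 0.00391). Without any 1 control, or without knockout 2 or knockout 3, 0 genes of this list and of the other claudins were called (edgeR).

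Of 12 genes known to act on claudins or on their expression, 3 were called lower and 0 higher (edgeR; 6 lower and 1 higher before adjustment, 4 and 0 by DESeq2), with a median log2 fold change of -0.60. The shares of all tested genes called lower were 6.64% by edgeR, 17.6% before adjustment and 15.0% by DESeq2. Hnf4a, a transcription factor of the proximal tubule, fell by 1.59 (SE 0.38; edgeR, adjusted p 0.0380). Prss8, a membrane protease reported to act on claudin-4, fell by 1.28 (SE 0.30; adjusted p 0.0364), and the parathyroid hormone receptor Pth1r by 1.24 (SE 0.34; adjusted p 0.0480). With library size alone Pth1r did not pass (edgeR, adjusted p 0.0515), and without any 1 control, or without knockout 2 or knockout 3, 0 of the 12 were called. Casr, the calcium-sensing receptor that controls Cldn14, was at -0.59 with an SE of 0.47 and did not pass (edgeR, adjusted p 0.379). The kinase Wnk4 and its adaptor Klhl3 were at -0.78 and -1.27 and did not pass (edgeR, adjusted p 0.129 and 0.0720). DESeq2's Wald test called Klhl3 lower (adjusted p 0.0148) and did not call Wnk4 (adjusted p 0.0567). Grhl2, a grainyhead-like factor of tight epithelia, was at 0.47 (SE 0.19; edgeR, adjusted p 0.114).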

How the data were processed

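Poly-A RNA of 6 whole mouse kidneys was sequenced (3 control, 3 knockout). The deposited files hold raw counts per gene, 1 table per group, without normalization. Per the labels and the study's methods, the authors used CASAVA 1.8.2, Trimmomatic, TopHat2 2.0.11, the mm9 genome and HTSeq. The annotation and strand setting of the counting are not given in the sources used here. Libraries were assigned by title.

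Genes were kept by filterByExpr (minimum count 10, minimum total 15). After TMM normalization, genotype was tested with edgeR 4.0.16's quasi-likelihood test (its default legacy setting) in R 4.3.3 over all 6 libraries without covariates, with Benjamini-Hochberg adjustment over 15171 genes. A standard error is the log2 fold change divided by the square root of F. Log2 CPM used a prior count of 2. DESeq2 1.42.0 and limma 3.58.1 (voom) were alternatives. On data simulated from these means and dispersions (15171 genes), edgeR called 166 of 194 changed genes and 15 unchanged ones. It made 0 calls where no gene was changed, and the values for DESeq2 were 179, 62 and 23. The changes put into these data were larger than those estimated for every tested member but Cldn4. The simulation thus does not give the share of such smaller changes that the tests would find. The tested replicates differed by far more than sampling noise (chi-square of at least 52.9 per degree of freedom). P-values measure the spread between these libraries.

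Coordinates and merged exon lengths are from GENCODE M1 (NCBIM37, mm9), which matched 20791 of 24422 gene names. For each member, 100% of the 100-base words of its longest coding transcript were found in no other gene. Members and lists were chosen with earlier results of these data known. Named are all members, list genes that passed or show that a list did not, the first 2 genes of marker lists, and the 2 nearest profiles of each member. Patj and Pals1 were read as Inadl and Mpp5. The values of 1 called gene of the junction partner list are not reported here.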

Additional observations from a re-analysis of the deposited data

How the results depend on the processing

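The rise of Cldn4, Cldn7 and Cldn1 was called under each scaling tried (TMM, upper quartile, library size alone and the size factors of DESeq2), under each filter (none, or 10 counts in all libraries) and by each tool (limma-voom, DESeq2's Wald test and both quasi-likelihood versions). Without 1 library the log2 fold change of Cldn4 was 1.74 to 2.17, of Cldn7 1.08 to 1.87 and of Cldn1 1.05 to 1.44, while the adjusted calls were lost in fits where few or 0 genes of the whole table passed. Across the fits that left out 1 library, members called higher ranged from 0 to 3 and lower from 0 to 2, other claudins higher from 0 to 3 and lower from 0 to 2, junction partners higher from 0 to 4 and lower from 0 to 3, regulators lower from 0 to 6, and all genes from 0 to 2788 higher and from 0 to 2544 lower, where fewer samples were fitted. Knockout 3, the library of lowest depth, decided the size for Cldn3 and Cldn16.

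DESeq2's Wald test called 2 members lower, 2 junction partners lower, 2 other claudins higher, and 2601 genes higher and 2281 lower, against 1604 and 1008. With library size alone 5 junction partners were higher, 2 other claudins higher and 1 lower, and 2985 genes higher and 662 lower. Limma-voom called 1 junction partner higher. The cause was not tested.

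Groups share replicate numbers, and with the replicate block 0 members, 0 junction partners, 0 other claudins, 0 regulators and 0 of all genes were called in either direction, with 5 members and 35.8% of all genes under an unadjusted p of 0.05. Deviations of libraries with the same number correlated at -0.13, 0.012 and 0.21, which does not pair them.

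Cldn8 turned to -0.04 without control 2, to -0.04 without knockout 1 and to -0.01 without knockout 3. Cldn19 turned to -0.08 without control 3 and to -0.18 without knockout 1. Over all fits without 1 library Cldn8 ranged from -0.0441 to 0.104 and Cldn19 from -0.178 to 0.533. With the longest transcript in place of merged exons, the control levels of Cldn10 and Cldn7 were 110.0 and 22.1 CPM per kilobase, against 89.1 and 15.2.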

Other observations

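Among claudins too low for the test, Cldn9 held 1, 1 and 5 counts in controls and 5, 10 and 37 counts in knockouts 1 to 3. Knockout 3 was thus the highest library for Cldn9 and for Cldn14. Cldn18, the claudin of stomach and lung, held 1, 18 and 6 counts in controls and 0 in each knockout, where 3 counts are the limit that a count of 0 allows. These genes were singled out after their values were seen.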
